A study of Mus musculus with 8 samples.

Results

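Immediate early genes were examined in the telencephalon of mice with Dlx1/2 mutations, across basal ganglia and cortex and across the genotypes +/- and -/-. The 10 genes were Fos, Fosb, Junb, Egr1, Egr2, Nr4a1, Nr4a3, Arc, Ier2 and Dusp1, taken as every probe set of the array that the platform annotation gives to one of these symbols alone. This gave 13 probe sets for 10 genes, of 18193 genes named by the array. The 4 groups were basal ganglia (BG) -/-, BG +/-, cortex (Ctx) -/- and Ctx +/-, with 2 arrays each and 8 in all. The genotypes refer to the paired homeobox genes Dlx1 and Dlx2, and the comparison animals were heterozygous, not wild type. The labels name no strain, age, allele design or pooling of animals. They do not say whether both arrays of a group stand for different animals, and p-values therefore measure array-to-array spread alone, part or all of which may be technical.

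Immediate early genes are transcribed within minutes of a stimulus from factors that a cell already holds, without new protein synthesis. Signalling through the ERK kinases acts on serum response factor and its partners at CArG boxes, and calcium and cyclic AMP act through CREB at sites built around TGACG. Many of the products are transcription factors, others feed back on the kinases or act at synapses, and in the brain their RNA is widely used as a mark of recent neuronal activity, although handling and dissection of tissue induce them too.

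Dlx1 checked the genotype labels: it lay at 1.74 to 15.5 on the 4 arrays labelled -/- and at 137 to 1237 on the 4 labelled +/-. Whether its probes fall inside the deleted stretch was not examined, so the check is one of labels only. The labels also name blood and adrenal medulla as a source, against the tissue given for each sample. By markers, 10 of 11 basal ganglia genes were higher and 10 of 10 cortex genes lower in BG +/- than in Ctx +/- (limma, adjusted p under 0.05), and 8 of 11 and 10 of 10 in BG -/- against Ctx -/-, where the basal ganglia marker Foxp1 was lower, at -0.86 ± 0.14 (adjusted p = 0.01). The summed signal of 7 adrenal medulla genes ranged over 817 to 886 for BG -/-, 778 to 925 for BG +/-, 626 to 661 for Ctx -/- and 687 to 701 for Ctx +/-. Xist, the transcript of the inactive X, was at 2340 to 2519 on the -/- arrays and at 34.2 to 67.5 on the +/- arrays, so sex and genotype cannot be told apart in any comparison of genotypes. Signals are on a linear scale after the authors' scaling, and without present or absent calls a dim probe set cannot be read as an absent transcript.

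Nr4a3 carried the largest regional difference among the 10 genes and showed it on 1 of its 3 probe sets. Its promoter is shown with those of Fos and Dusp1, a widely studied member and the only 1 of the 7 genes searched whose window held a complete CRE, to display the CREB-type letters. Each runs from 250 bases before to 50 bases after a start site and comes from RefSeq, build GRCm38.p6. Capitals mark TGACG on either strand, read as CGTCA on the other, and in Dusp1 the palindrome TGACGTCA, which holds that motif on both strands.
Nr4a3, chr4:48045055-48045354, plus strand: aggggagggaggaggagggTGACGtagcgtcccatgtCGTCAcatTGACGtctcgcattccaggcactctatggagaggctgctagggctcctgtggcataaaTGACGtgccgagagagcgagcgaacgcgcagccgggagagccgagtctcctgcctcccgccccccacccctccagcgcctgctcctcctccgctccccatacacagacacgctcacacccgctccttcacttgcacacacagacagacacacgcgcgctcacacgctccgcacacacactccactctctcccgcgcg
Fos, chr12:85473640-85473939, plus strand: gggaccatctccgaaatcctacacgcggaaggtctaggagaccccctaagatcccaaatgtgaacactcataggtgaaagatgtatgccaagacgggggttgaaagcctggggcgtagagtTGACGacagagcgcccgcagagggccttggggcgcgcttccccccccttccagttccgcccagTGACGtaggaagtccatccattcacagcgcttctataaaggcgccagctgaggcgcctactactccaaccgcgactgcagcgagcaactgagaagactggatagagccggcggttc
Dusp1, chr17:26508423-26508722, minus strand: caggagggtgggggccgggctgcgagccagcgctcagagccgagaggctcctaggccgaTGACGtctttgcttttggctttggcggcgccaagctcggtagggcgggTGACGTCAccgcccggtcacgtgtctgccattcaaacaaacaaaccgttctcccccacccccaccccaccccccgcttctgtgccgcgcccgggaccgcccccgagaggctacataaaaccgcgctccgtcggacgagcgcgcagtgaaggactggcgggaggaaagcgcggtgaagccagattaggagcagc
The Nr4a3 window held 4 copies of TGACG, Fos 2 and Dusp1 3. Of the 32851 promoters in the RefSeq table, 20.8% held at least 1 copy and 0.231% held 4 or more. Nr4a1 also held 4, Fosb and Junb 1 each, and of the 5 windows listed for Egr2, 3 held 2 copies and 2 held 0. Arc, Ier2 and Egr1 were not searched. Among the windows searched for these genes, TGACGTCA was found in Dusp1 alone, against 1.79% of all promoters. A CArG box, 6 A or T letters between CC and GG, was found in 4 of the 5 windows of Egr2, of which 3 overlap almost wholly and share letters, and in none of Nr4a3, Fos, Fosb, Junb, Nr4a1 and Dusp1, against 1.63% of all promoters. The windows began 250 bases before the start site, so a CArG box or TGACG farther upstream would not be seen. These are matches of letters, not measured sites.

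The levels of the 10 genes are given first by role, beginning with the AP-1 transcription factors. Fos, the DNA-binding partner of JUN proteins, was at 35.8 and 15.5 in BG -/- tissue, 40.2 and 43.2 in BG +/- tissue, 23.8 and 33.6 in Ctx -/- and 29.5 and 18.3 in Ctx +/-. The BG +/- arrays were the highest and did not overlap with any other group, while the other groups overlapped each other. Junb, a JUN family member, was at 16.4 and 1.42 in BG -/- tissue, 20.8 and 37.7 in BG +/- tissue, 40.7 and 32.1 in Ctx -/- and 31.4 and 34.6 in Ctx +/-. Both BG -/- arrays lay below all others, and these 2 arrays differed widely from each other. Fosb, a close relative of Fos, was at 23.2 and 21.5 in BG -/- tissue, 5.17 and 11.8 in BG +/- tissue, 8.81 and 0.703 in Ctx -/- and 13.7 and 14.4 in Ctx +/-. Only the BG -/- arrays exceeded 16, the offset used on the log scale, and Fosb was too dim to be kept by the filter on low values.

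Of the EGR zinc finger factors, Egr1 was at 51.6 and 43.8 in BG -/- tissue, 65.2 and 45.8 in BG +/- tissue, 16.1 and 18.7 in Ctx -/- and 11.7 and 28.1 in Ctx +/-. All 4 BG arrays lay above all 4 Ctx arrays, and within each region the genotypes overlapped. Egr2, which in mouse is required for hindbrain segmentation and for myelination by Schwann cells, was at 2.24 and 2.23 in BG -/- tissue, 13.3 and 8.99 in BG +/- tissue, 7.20 and 9.95 in Ctx -/- and 3.93 and 0.968 in Ctx +/- on its brighter probe set. All 8 values were below 16. Its other probe set lay between 0.321 and 6.52.

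Of the NR4A orphan nuclear receptors, Nr4a1 was at 30.8 and 54.2 in BG -/- tissue, 73.5 and 74.0 in BG +/- tissue, 46.7 and 51.4 in Ctx -/- and 52.8 and 51.6 in Ctx +/-. The BG +/- arrays were again apart from the rest. Nr4a3, on its brightest probe set, was at 82.4 and 64.7 in BG -/- tissue, 139 and 93.1 in BG +/- tissue, 899 and 842 in Ctx -/- and 671 and 775 in Ctx +/-. The 4 groups did not overlap, in the order Ctx -/-, Ctx +/-, BG +/- and BG -/- from high to low. Its other probe sets were at 1.28 to 15.2 and at 5.99 to 9.61, below 16 on all 8 arrays. On neither of them was a regional difference past the threshold.

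**Figure D1:**
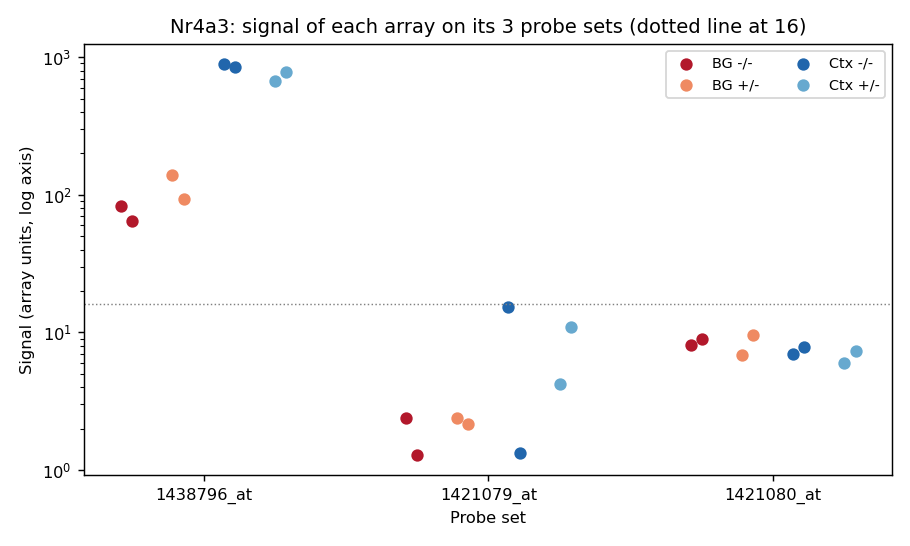
Signal of Nr4a3 on each of the 8 arrays (log axis, array units) for its 3 probe sets, 1 colour a group and 2 points a group. On the brightest probe set the Ctx arrays sit at 671 to 899 and the BG arrays at 64.7 to 139, while on both other probe sets all 8 arrays lie under the dotted line at 16.

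Arc, a synaptic protein that promotes the removal of AMPA receptors from the membrane, was at 4.98 and 3.13 in BG -/- tissue, 6.46 and 3.18 in BG +/- tissue, 1.32 and 3.89 in Ctx -/- and 1.66 and 11.2 in Ctx +/-. All groups overlapped at this low signal. Ier2, a nuclear protein whose role is less defined, was at 76.0 and 78.5 in BG -/- tissue, 128 and 95.5 in BG +/- tissue, 232 and 226 in Ctx -/- and 213 and 253 in Ctx +/-. The 4 Ctx arrays were above the 4 BG arrays, and BG -/- lay below BG +/-. Dusp1, a phosphatase that switches off MAP kinases and so limits the response, was at 564 and 621 in BG -/- tissue, 762 and 754 in BG +/- tissue, 746 and 658 in Ctx -/- and 578 and 663 in Ctx +/-. It varied least of the 7 genes that were kept, with an SD of 0.17 over the 8 arrays on the log2 scale, against 1.58 for Nr4a3.

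**Figure D2:**
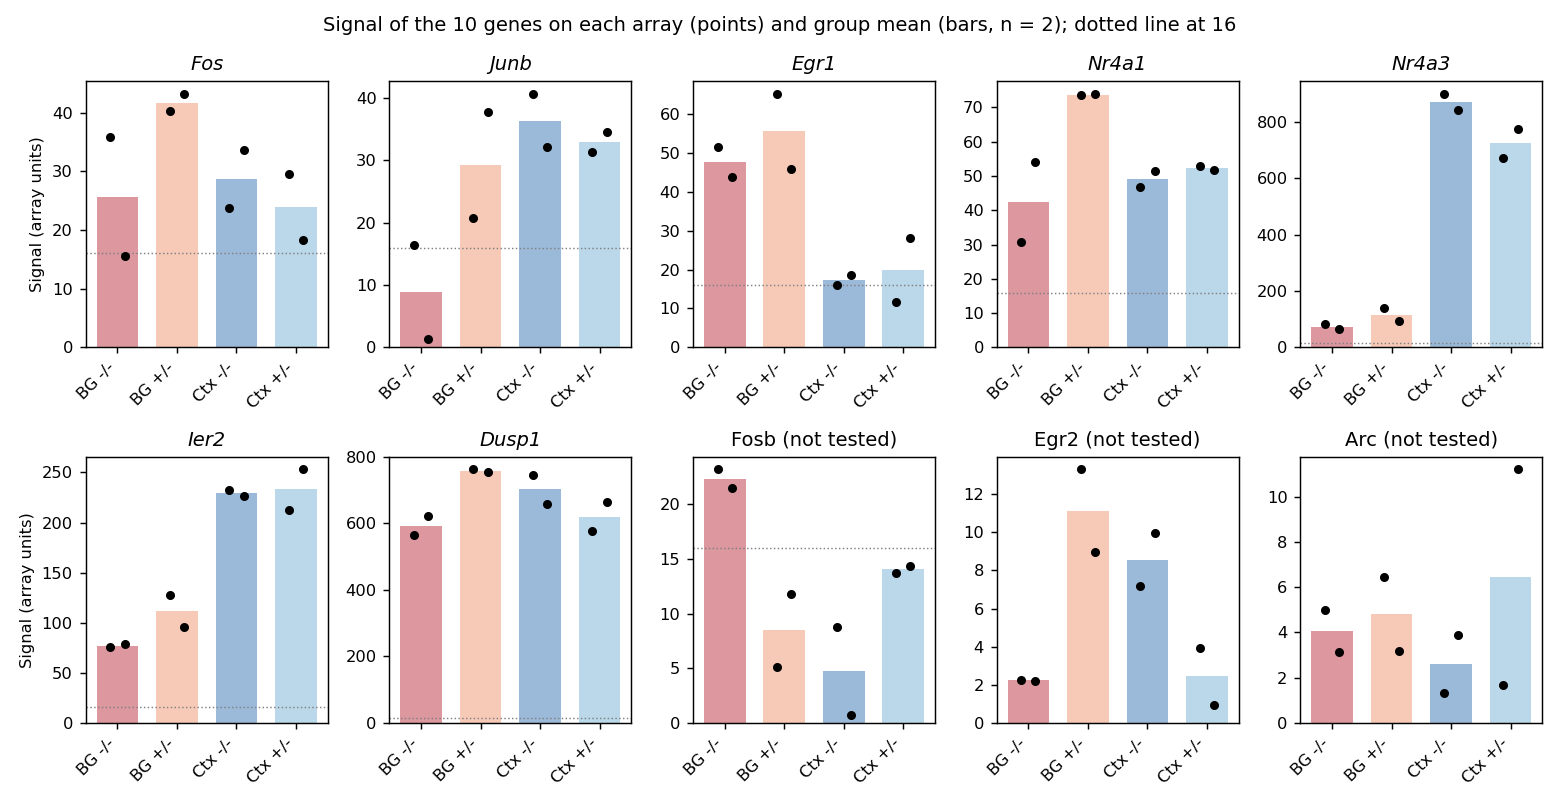
Signal of each of the 10 genes on its brightest probe set, with points for the arrays, bars for the mean of 2 arrays a group and a dotted line at 16 (above the axis for Egr2 and Arc). Nr4a3 and Ier2 are high in both Ctx groups and Egr1 in both BG groups, and Fosb, Egr2 and Arc, marked as not tested, have signals between 0.703 and 23.2.

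For the tests, signals were taken as log2(signal + 16), and a gene was tested if its brightest probe set was outside the lowest 30% of probe sets by mean level. This kept 7 of the 10 genes and left out Fosb, Egr2 and Arc, whose values below come from the same fit without the filter. Differences are on this log2 scale, which understates those of dim genes.

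The regional comparisons asked how basal ganglia and cortex differ within a genotype. In BG +/- against Ctx +/-, Nr4a3 and Ier2 were lower in BG and Egr1 was higher. Thus 2 of 7 genes were lower, where 10.7% of the 13627 genes tested were, and 1 of 7 was higher, where 14.0% were. Nr4a3 differed by -2.50 ± 0.20 (SE, log2, limma adjusted p = 0.000787), Ier2 by -0.97 ± 0.16 (adjusted p = 0.00805) and Egr1 by 1.02 ± 0.24 (adjusted p = 0.0269). Averaging all 3 probe sets of Nr4a3 gave -0.92 in this comparison, so the size rests on 1 probe set. The Egr1 call did not hold in 7 of 16 alternative settings, among them leaving out BG +/- replicate 2 (0.82, adjusted p = 0.122), BG +/- replicate 3 (1.21, adjusted p = 0.0504) or Ctx +/- replicate 2 (0.68, adjusted p = 0.0684). Fos at 0.55 ± 0.26, Nr4a1 at 0.40 ± 0.19, Dusp1 at 0.29 ± 0.13 and Junb at -0.14 ± 0.31 did not pass. The arrays of the regions did not overlap for 6 of 7 genes, Junb being the exception, and for 65.0% of all genes tested.

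In BG -/- against Ctx -/-, the same 3 genes passed in the same directions: 2 of 7 were lower against 7.25% of all genes tested, and 1 of 7 was higher against 11.4%. Nr4a3 differed by -3.31 ± 0.20 (limma adjusted p = 0.000328) and by -1.21 with its probe sets averaged. Ier2 differed by -1.39 ± 0.16 (adjusted p = 0.00284). Egr1, at 0.93 ± 0.24 (adjusted p = 0.0443), kept its call in 5 of 16 alternatives and lost it without any 1 of the BG arrays or of the Ctx -/- arrays, at 0.84 to 1.02 with adjusted p of 0.054 to 0.179. Centring every array at its own median lowered the median difference of all probe sets by 0.28, and Egr1 was then at 0.65 (adjusted p = 0.127) and Junb at -1.42 (adjusted p = 0.0179). As reported, Junb was at -1.14 ± 0.31 and just missed the threshold (adjusted p = 0.0505). Without BG -/- replicate 2 it was at -1.58 (adjusted p = 0.0293). Dusp1 at -0.24 ± 0.13, Nr4a1 at -0.18 ± 0.19 and Fos at -0.14 ± 0.26 did not pass, and the arrays did not overlap for 5 of 7 genes and for 71.1% of all genes.

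Over all 10 genes without the filter, the median regional difference was 0.10 in +/- and -0.21 in -/-, where that of all 18193 genes was 0.12 and 0.10. The median of the 10 therefore hides differences in both directions. Of the dim genes, Fosb stood at 0.91 ± 0.23 in BG -/- against Ctx -/- and Egr2 at 0.56 ± 0.16 in BG +/- against Ctx +/-, neither past the threshold (limma without the filter, adjusted p = 0.053 and 0.0625).

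**Figure D3:**
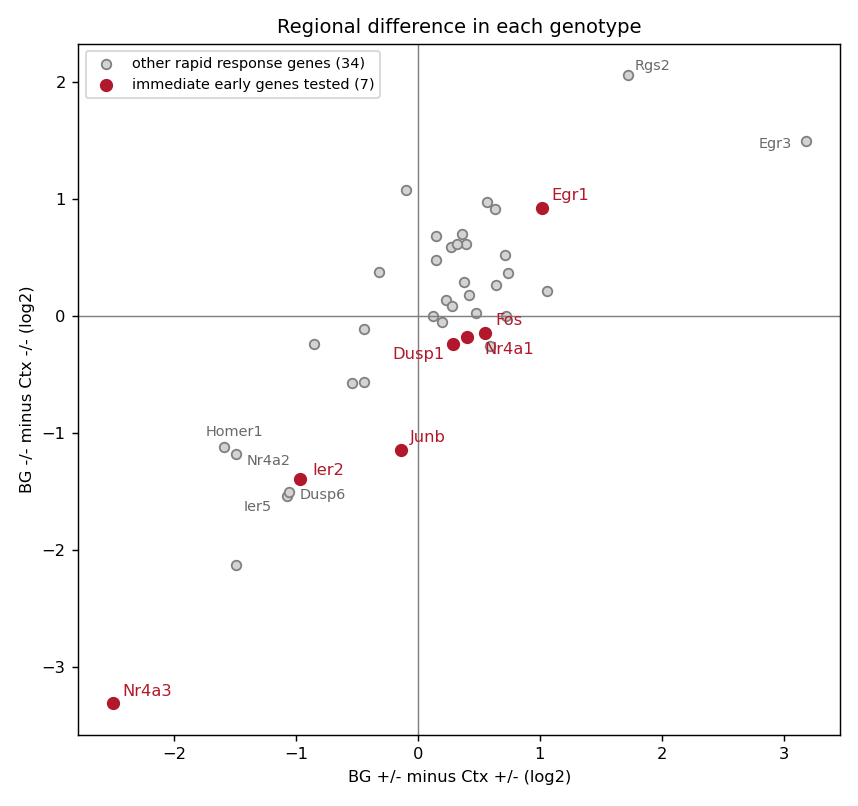
Regional difference in +/- (horizontal) against that in -/- (vertical), both as BG minus Ctx on the log2 scale, for the 7 immediate early genes tested (red) and 34 other rapid response genes (grey). Nr4a3 lies at the lower left with -2.50 and -3.31, Ier2 at -0.97 and -1.39, and Egr1 at the upper right with 1.02 and 0.93, beside Egr3 and Rgs2 on the same side.

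Other tissue and control RNA moved with region as well. For the counts below, 14.0% of all genes tested were higher and 10.7% lower in BG +/- than in Ctx +/-. In BG -/- against Ctx -/-, 11.4% were higher and 7.25% lower. Of 10 microglia genes tested, 6 were higher in BG +/- than in Ctx +/- and 2 in BG -/- than in Ctx -/-. The summed signal of that list was 1311 to 1341 in BG -/-, 1319 to 1463 in BG +/-, 803 to 881 in Ctx -/- and 667 to 672 in Ctx +/-. Of 6 red blood cell genes, 4 were higher in BG +/- and 3 in BG -/-, with sums of 3189 to 3353 in BG -/-, 6067 to 6413 in BG +/-, 1488 to 1710 in Ctx -/- and 2082 to 2302 in Ctx +/-. The summed signal of the choroid plexus list was 268 to 273 in BG -/-, 224 to 225 in BG +/-, 58 to 118 in Ctx -/- and 12213 to 14044 in Ctx +/-. Of its 7 genes tested, 4 were lower in BG +/- than in Ctx +/-, with Ttr, the transthyretin gene that choroid plexus makes in quantity, at -8.24 ± 0.21, and 2 were higher in BG -/- than in Ctx -/-. No marker of these 3 lists was at 0. The spiked dap control, 3' probe set, was at 1087 and 1241 in BG -/- tissue, 1726 and 1941 in BG +/- tissue, 439 and 233 in Ctx -/- and 644 and 1108 in Ctx +/-. For 18S ribosomal RNA, signals at its 5' end were 1126 and 450 in BG -/- tissue, 1124 and 5265 in BG +/- tissue, 127 and 97 in Ctx -/- and 182 and 190 in Ctx +/-. All 4 BG arrays thus lay above all 4 Ctx arrays for 18S, with BG +/- replicate 3 far above the rest. The part of these in the regional differences of Nr4a3, Ier2 and Egr1 was not tested. In such tissue RNA, fewer cells of a type and less RNA per cell cannot be told apart.

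The comparison of genotypes in basal ganglia asked whether immediate early genes differ without Dlx1/2. None of 7 passed over all probe sets (limma with Benjamini-Hochberg), where 7.82% of genes did. At an unadjusted p under 0.05 there were 5, namely Dusp1, Ier2, Junb, Nr4a1 and Nr4a3, all lower in BG -/-, against 26.9% of all genes in either direction. All 7 had a difference below 0, as had 58.2% of all genes, and for 6 of 7 both BG -/- arrays lay below both BG +/- arrays, as for 37.0% of all genes. Nr4a1 was at -0.65 ± 0.19 (adjusted p = 0.085), Junb at -0.90 ± 0.31 (adjusted p = 0.118), Ier2 at -0.44 ± 0.16 (adjusted p = 0.132), Nr4a3 at -0.55 ± 0.20 (adjusted p = 0.136) and Dusp1 at -0.35 ± 0.13 (adjusted p = 0.148). Fos at -0.51 ± 0.26 and Egr1 at -0.16 ± 0.24 had larger p. With the lowest 50% of probe sets left out, which kept 4 of the genes, Nr4a1 passed (-0.65, adjusted p = 0.0413). Without BG -/- replicate 3 Junb stood at -0.46 and without BG -/- replicate 2 at -1.35, so its size rests on these arrays. Leaving out 1 array moved other values by over 1.5 times as well. Fos was at -0.16 without BG -/- replicate 3 and at -0.87 without BG -/- replicate 2. Nr4a1 was at -0.35 without BG -/- replicate 2. Without BG +/- replicate 2, Nr4a3 was at -0.29 and Ier2 at -0.26, and Nr4a3 was at -0.19 with its probe sets averaged.

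Over all 10 genes without the filter, the median difference in BG was -0.48, against -0.06 over 18193 genes. Of the dim genes, Egr2 at -0.57 ± 0.16 and Fosb at 0.66 ± 0.23 did not pass (limma without the filter, adjusted p = 0.101 and 0.161), and Arc was at -0.05 ± 0.23. Fosb was thus the 1 gene of the 10 with a value above 0. The red blood cell sums above were also lower in BG -/- than in BG +/-. Past the threshold, 1 of 6 of these genes fell and 4 of 11 basal ganglia markers did, where 7.82% of all genes passed in either direction. The basal ganglia markers had sums of 4710 to 4719 in BG -/- and of 6862 to 7047 in BG +/-. The part of either list in the values was not tested.

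In cortex, none of 7 passed (limma with Benjamini-Hochberg), where 0.205% of all genes did, and none at an unadjusted p under 0.05, where 8.60% did. The differences ran from -0.07 ± 0.24 for Egr1 to 0.27 ± 0.20 for Nr4a3, with Fos and Dusp1 at 0.17 ± 0.26 and 0.17 ± 0.13, Junb at 0.09 ± 0.31, Ier2 at -0.02 ± 0.16 and Nr4a1 at -0.07 ± 0.19. The arrays did not overlap for 2 of 7 genes, Nr4a1 and Nr4a3, and for 39.3% of all genes. The median over the 10 genes was 0.04, against -0.03 over all genes. Choroid plexus genes summed to 58 and 118 in Ctx -/- and to 12213 and 14044 in Ctx +/-, nearly all of it Ttr. The part of this in the values of the immediate early genes was not tested.

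**Figure D4:**
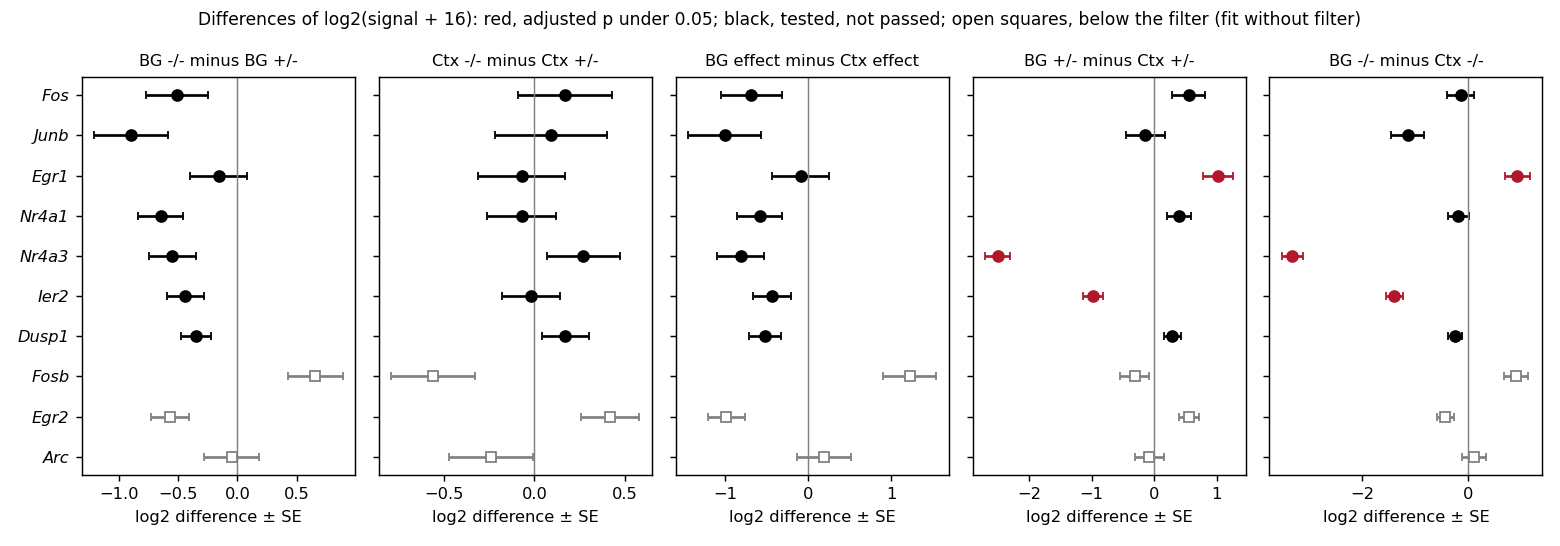
Differences of log2(signal + 16) with their SE for the 10 genes in the 5 comparisons, red where adjusted p is under 0.05, black where a gene was tested and did not pass, and open squares for the 3 genes under the filter, from the fit without it. Red points occur only in the regional panels, for Nr4a3, Ier2 and Egr1.

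The next comparison tested whether the genotype difference itself differed between the regions, which is also the test of whether the regional gap differed between genotypes. None of 7 passed (limma with Benjamini-Hochberg), where 0.338% of all genes did. At an unadjusted p under 0.05 there were 2, Nr4a3 at -0.81 ± 0.28 (adjusted p = 0.221) and Dusp1 at -0.52 ± 0.19 (adjusted p = 0.232), against 15.3% of all genes. All 7 values were below 0, as were 52.2% of all genes, and the median over the 10 genes was -0.55, against -0.01 over all genes. This comparison uses the same arrays as those above, so its signs are not separate evidence. The difference of genotype effects was -1.0 ± 0.44 for Junb, -0.68 ± 0.37 for Fos, -0.58 ± 0.27 for Nr4a1, -0.43 ± 0.23 for Ier2 and -0.09 ± 0.34 for Egr1.

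Of 41 other rapid response genes, 34 were tested. In BG +/- against Ctx +/-, 6 were higher and 5 lower, and in BG -/- against Ctx -/-, 5 were higher and 5 lower. Over all genes tested, 14.0% were higher and 10.7% lower in +/-, and 11.4% higher and 7.25% lower in -/-. Relatives of the listed genes were among those called. Egr3, another EGR factor, was at 52.4 and 57.5 in BG -/- tissue, 146 and 153 in BG +/- tissue, 5.6 and 13 in Ctx -/- and 0.999 and 3.6 in Ctx +/-. Its arrays did not overlap between any 2 of the groups. It differed by 3.18 ± 0.17 between the regions in +/- (limma adjusted p = 0.000273) and by 1.50 ± 0.17 in -/- (adjusted p = 0.00264). All 4 Ctx arrays of Egr3 lay below 16, so the size depends on the offset. Over the alternative settings, other offsets among them, Egr3 ranged from 1.69 to 5.64 in +/- and from 0.69 to 2.54 in -/-. Rgs2, which limits signalling by G proteins, was at 1172 and 1183 in BG -/- and 981 and 1019 in BG +/-, above the 263 and 276 in Ctx -/- and the 303 and 282 in Ctx +/-. The regional difference of Rgs2 was 2.06 ± 0.11 in -/- and 1.72 ± 0.11 in +/-.

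Nr4a2, the remaining NR4A receptor, which midbrain dopamine neurons require, was lower in BG than in Ctx, by -1.49 ± 0.16 in +/- and -1.18 ± 0.16 in -/- (limma adjusted p = 0.0019 and 0.00504), although with its probe sets averaged the value in +/- was -0.45. Homer1, a scaffold of postsynaptic glutamate receptors, was at -1.59 ± 0.16 in +/- and at -0.82 with its probe sets averaged. Dusp6, a phosphatase of ERK, and Ier5, a relative of Ier2, were at -1.50 ± 0.12 and -1.54 ± 0.19 in BG -/- against Ctx -/- (adjusted p = 0.000804 and 0.00349).

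Between genotypes in BG, 1 of these 34 genes rose and 2 fell, where 7.82% of all genes tested passed in either direction. Egr3 fell by 1.23 ± 0.17 (limma adjusted p = 0.0116), a call lost without any 1 of the 4 BG arrays, at -1.28 to -1.17 with adjusted p of 0.0576 to 0.082. Gadd45g, a gene of the growth arrest and DNA damage response, rose by 0.74 ± 0.13 (adjusted p = 0.0234), and Plk2, a kinase that acts at synapses, fell by 0.67 ± 0.14 (adjusted p = 0.0331). Each kept its call in 2 of the 8 fits that leave out 1 array. In Ctx none passed and 4 had an unadjusted p under 0.05, where 8.60% of all genes tested did. In the difference of effects Egr3 alone passed, at -1.68 ± 0.24 (adjusted p = 0.0496), and it did so in 1 of 15 alternatives.

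The upstream list held kinases, channels and factors that lead to immediate early genes. Of its 39 genes, 30 were tested, and the other 9 were not analysed here. In BG -/- against BG +/-, 4 rose and 2 fell, where 7.82% of all genes tested passed. Those that fell were Camk2a, a synaptic calcium-dependent kinase, at -0.93 ± 0.22 (limma adjusted p = 0.0435) and Map2k2, a kinase that activates ERK, at -0.70 ± 0.15 (adjusted p = 0.0372). Both were named after their values were seen. Of those that rose, Braf was at 0.90 ± 0.15 (limma adjusted p = 0.0187), and its call held in 12 of 17 alternatives. Creb1, the cyclic AMP response factor itself, rose by 0.60 ± 0.12 (limma adjusted p = 0.0286). Rps6ka3, a kinase downstream of ERK, was at 0.75 ± 0.14 and Camk4, a calcium-dependent kinase that acts on CREB, at 0.69 ± 0.15. Creb1 had signals of 1126 and 1057 on the BG -/- arrays, against 680 and 754 on the BG +/- arrays, and its call held in 6 of 17 alternatives. The call of Rps6ka3 held in 9 of 17, and that of Camk4 in 5 of 17, with 0.33 (adjusted p = 0.259) when its probe sets were averaged. In Ctx none passed, and 2 had an unadjusted p under 0.05, where 8.60% of all genes tested did. In BG +/- against Ctx +/-, 3 were higher and 7 lower, where 14.0% and 10.7% of all genes tested were. These were led by Camk2a at 2.50 ± 0.22 and the transcription factor Mef2c at -1.45 ± 0.13. In BG -/- against Ctx -/-, 2 were higher and 2 lower, where 11.4% and 7.25% of all genes tested were. Camk2a was at 1.15 ± 0.22 and Mef2c at -1.44 ± 0.13. Camk4 was lower in BG in both genotypes, at -1.17 ± 0.15 and -0.58 ± 0.15, but with its probe sets averaged these values were -0.35 (limma adjusted p = 0.17) and 0.34.

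Some heat shock and tissue stress genes, which like immediate early genes can respond to handling, were higher in BG. Of 20 tested, 8 were higher and none lower in BG +/- against Ctx +/-, and 4 were higher and 1 lower in BG -/- against Ctx -/-, with list medians of 0.21 and 0.20. Over all genes tested, 14.0% were higher and 10.7% lower with a median of 0.11 in +/-, and 11.4% were higher and 7.25% lower with a median of 0.06 in -/-. Hspa1b, an inducible heat shock protein gene, was at 250 and 205 in BG -/- tissue, 266 and 236 in BG +/- tissue, 58.9 and 50.1 in Ctx -/- and 61.3 and 71.4 in Ctx +/-. The gap was 1.78 ± 0.15 in -/- and 1.70 ± 0.15 in +/- (limma adjusted p = 0.00101 and 0.0011). Hspa1b and its near-identical copy Hspa1a, at 1.05 ± 0.12 and 0.79 ± 0.12, may share signal. Between genotypes, 1 stress gene rose and 1 fell in BG, Hif1a at 0.46 ± 0.11 and Xbp1 at -0.46 ± 0.11 (limma adjusted p = 0.0482 and 0.0475). Of all genes tested, 7.82% passed there in either direction. Hif1a kept its call in 5 of 17 alternatives and Xbp1 in 4 of 17, each in 2 of the 8 fits that leave out 1 array, and Xbp1 was at -0.22 with its probe sets averaged. None passed in Ctx, and 1 had an unadjusted p under 0.05, where 8.60% of all genes tested did. The list did not go 1 way between the regions. Hspb1 was called higher in BG in +/-, at 1.30 ± 0.25 (limma adjusted p = 0.0134). Hsph1 was at -0.35 ± 0.12 in +/- and -0.34 ± 0.12 in -/-, neither past the threshold. Atf4 was called lower in BG in -/-, at -0.47 ± 0.11 (limma adjusted p = 0.036). The part of this list in the regional differences of Egr1, Nr4a3 and Ier2 was not tested.

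The genes most like the mean profile of the 7 tested members over the 8 arrays were Rcc2, Ptbp1, Tk1, Llgl1 and 1110038F14Rik. Their root mean square difference from it was 0.057 to 0.083 on the log2 scale, where the median over 13620 genes was 0.420. Those 5 genes were picked as the nearest of all, so their distance is no measure for the members. The members, each part of that mean, were 0.281 (Dusp1) to 1.216 (Nr4a3) away from it. Dusp1, Junb at 0.292, Ier2 at 0.361, Nr4a1 at 0.366 and Fos at 0.406 lay under the median of all genes. Egr1 at 0.760 and Nr4a3 lay above it. The root mean square of the profile itself was 0.311, which is the distance of a gene with the same level on all 8 arrays. Members are drawn towards a mean that they form, and the other genes are not. Lying under the median is therefore no measure of likeness. The mean profile was lowest on the BG -/- arrays, at -0.40 and -0.59, close to 0 on the BG +/- arrays, at 0.06 and -0.04, and highest in Ctx, at 0.28 and 0.28 in -/- and 0.14 and 0.27 in +/-. Nr4a3 had the widest range in it, with 1.22 to 1.63 in Ctx and -1.87 to -0.92 in BG. The profile does not describe each member. By group mean, Fos, Egr1, Nr4a1 and Dusp1 were highest in BG +/-, and Junb, Nr4a3 and Ier2 were highest in a Ctx group.

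The regional calls of Nr4a3 and Ier2 held in all 17 alternative settings in both genotypes. Nr4a3 ranged from -2.76 to -0.92 in +/- and from -3.60 to -1.21 in -/-, and Ier2 from -1.15 to -0.76 and from -1.68 to -1.05.

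**Figure D5:**
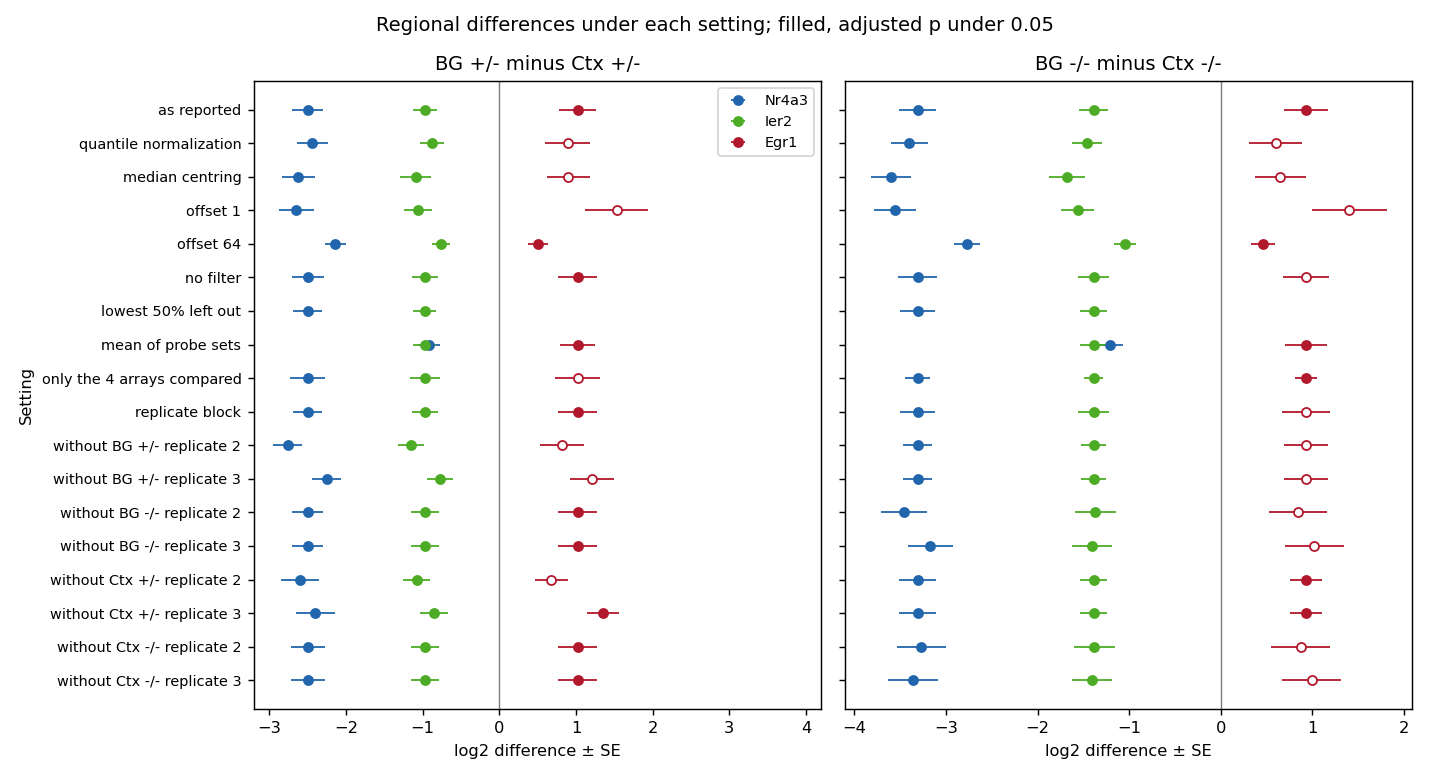
Regional log2 difference with its SE for Nr4a3, Ier2 and Egr1 under each setting, BG minus Ctx, in +/- (left) and -/- (right), filled where adjusted p is under 0.05. The points of Nr4a3 and Ier2 are filled throughout, and those of Egr1 are open in 7 of 16 alternatives in +/- and in 11 of 16 in -/-.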

How the data were processed

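RNA from mouse basal ganglia and cortex was measured on 8 arrays, grouped by the sample titles. The deposited values are linear intensity values, 1 for each probe set, which the authors had scaled so that the mean with 2% trimmed at each end is 150.00 on every array. The software behind them is not given in the sources. Of 45101 probe sets, 64 controls were left out. The platform annotation gave 1 symbol for 34945 of the rest, several for 932 and none for 9160.

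The deposited signals were turned into log2(signal + 16), with no other scaling, after leaving out the lowest 30% of probe sets by mean level, which kept 31526. limma 3.58.1 (R 4.3.3) fitted 4 group means on all 8 arrays with lmFit and eBayes. Two-sided p-values were adjusted by Benjamini-Hochberg over these probe sets, with a threshold of 0.05. A gene is represented by its probe set with the highest mean, among those that name it alone. From lists other than the 10 genes, up to 4 genes a comparison with the smallest p were eligible to be named. Named outside this rule were Hspb1, Hsph1 and Atf4 between regions, and Foxp1 and Nr4a2 in BG -/- against Ctx -/-. Camk2a and Map2k2 between BG genotypes were also outside it. The adrenal medulla genes were all given. The 5 genes of like profile had the smallest root mean square difference over the arrays. The fit was tested on simulated arrays with known changes. A log2 change of 0.5 was recovered in 0% of cases in every comparison. A change of 1 was recovered in 25.4% between BG genotypes, 28.4% between Ctx genotypes and 0% in the difference of effects. Each simulation changed only 66 or 67 probe sets of each size. In the data 3070 probe sets passed between BG genotypes, so the adjustment was less strict there than in the simulation. Xbp1 at -0.46 and Hif1a at 0.46 passed in that comparison. The simulated rates therefore do not give the power of the reported fit. With 2 arrays a group, a gene that did not pass cannot be read as unchanged. The number of arrays limits the precision. Members and lists were chosen with earlier results of these data known. Replicate numbers 2 and 3 recur in each group, but no label says that they pair samples.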

Additional observations from a re-analysis of the deposited data

Results flagged for a closer look

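For 3 of the 10 genes, the genotypes differed in opposite directions in the 2 regions with no overlap between their arrays in either region. The fitted values of Fos, Junb and Dusp1 also had opposite signs, but their arrays overlapped in Ctx. The share of all genes with this pattern was not counted, so the 3 cannot be set against it. Arrays of the Ctx genotypes did not overlap for 39.3% of all genes tested. Both BG -/- arrays lay below both BG +/- arrays for 37.0%. Subtracting the genotype effect in Ctx from the one in BG gave 1.22 for Fosb, which was higher in BG -/- than in BG +/- and lower in Ctx -/- than in Ctx +/-. It gave -0.98 for Egr2 and -0.81 for Nr4a3, both lower in BG -/- and higher in Ctx -/-. The difference itself did not pass for any of the 3 (limma, adjusted p = 0.2 for Fosb and 0.158 for Egr2 without the filter, and 0.221 for Nr4a3). With its probe sets averaged, Nr4a3 was at -0.19 in BG and 0.10 in Ctx, a difference of -0.29. The other probe set of Egr2 was at 0.21 in BG and 0.17 in Ctx, a difference of 0.04. All values of Egr2 and 6 of 8 of Fosb were below 16.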

How the results depend on the processing

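Of 573 values of the immediate early genes under alternative settings, 535 kept their direction and their side of the threshold, 18 lost a call, 6 gained one and 14 changed sign. The count of genes called between genotypes in BG was 1 with the lowest 50% of probe sets left out. Leaving out 1 array at a time gave 0 to 0 genes in both genotype comparisons and in their difference, and 2 to 3 genes in each regional comparison. The signs that turned belonged to values that had not passed. With 1 array left out, Egr1 ranged from -0.35 to 0.04 between BG genotypes, from -0.40 to 0.27 between Ctx genotypes and from -0.42 to 0.25 in the difference of effects. Without BG +/- replicate 2 or BG -/- replicate 3 that difference was 0.11 and 0.00. Between Ctx genotypes, Fos ranged from -0.03 to 0.37, Junb from -0.03 to 0.21 and Ier2 from -0.13 to 0.10, and median centring gave 0.05 for Ier2 and quantile normalization 0.00 for Egr1. Between regions, Junb in +/- ranged from -0.41 to 0.13, and in -/- Fos ranged from -0.50 to 0.22 and Nr4a1 from -0.47 to 0.11. Camk4, which had passed, was at 0.34 in -/- with probe sets averaged. The causes were not tested. Median centring changed the share of higher calls over all probe sets to 31.6% in BG +/- against Ctx +/- (46.4% as reported), to 26.5% in BG -/- against Ctx -/- (61.8%) and to 67.9% in the difference of effects (90.1%). Same-numbered arrays did not deviate together (r = -0.0262 to 0.0218 over probe sets). This cannot show whether same-numbered samples share an animal or a preparation. With the replicate block, Egr1 in BG -/- against Ctx -/- was at 0.93 with limma adjusted p = 0.0679, the 1 call among the immediate early genes that the block ended.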
